A study of Mus musculus with 12 samples.

Results

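Kupffer cells are the resident macrophages of the liver, and 10 genes that mark them or macrophages in general were followed here through the livers of mice on 4 diets. The genes were taken by name from a list of Kupffer cell and macrophage markers (Clec4f, Timd4, Marco, Cd5l, Vsig4, Cd163, Folr2, Adgre1, Csf1r and Cd68), and all 10 were found among the 54532 genes of the expression table. The mice were male C57BL/6J, 5 weeks old at the start and kept on their diet for 26 weeks, with 3 mice in each of 4 groups. Mice ate normal chow (ND) or a high-fat diet, which was given alone (control), with 1% HYA or with 1% LA. HYA is a hydroxylated fatty acid formed by gut bacteria from linoleic acid (LA), so that the LA diet supplies its parent compound at the same percentage. Whole liver RNA was sequenced, and expression was given as FPKM, in which fragments are divided by gene length and library size.

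Kupffer cells sit in the liver sinusoids, where they take up bacteria, lipoproteins, dying cells and old red blood cells from the blood. Resident cells carry receptors such as Clec4f and Timd4 that macrophages newly formed from blood monocytes lack or gain late, whereas Adgre1, Csf1r and Cd68 are carried by macrophages of both origins. When resident cells are lost in a fatty liver, monocytes can enter the niche and take on part of the resident program.

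Hepatocyte genes such as Alb were by far the most abundant of the cell type markers in each liver and fit the label of whole liver. Between 17169064 and 25220880 fragments per liver fell on genes. The least covered of the markers was Timd4, with 73 to 239 fragments in a liver, and each of the 10 genes lay above 1 FPKM in each of the 12 livers, so that no gene entered the tests through 1 diet group alone. Over all livers Cd5l had the highest mean FPKM (79.3), followed by Clec4f (44.8), Vsig4 (19.3), Csf1r (18.5), Cd68 (12.8), Adgre1 (11.5), Marco (10.7), Folr2 (7.97), Timd4 (3.16) and Cd163 (2.86). FPKM is a level per gene length, and the order from Vsig4 to Marco changed between groups: Marco was the third of the 10 genes in ND-fed mice and the eighth in control mice. Groups were compared with limma on log2(FPKM + 1) over the 11083 genes whose mean reached 1 FPKM, and a gene was called at a Benjamini-Hochberg adjusted p under 0.05. Fold changes on this scale understate the change of genes with few FPKM.

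In control mice 5 of the 10 markers differed from ND-fed mice, and they did not move in 1 direction. The scavenger receptors Marco and Cd163 and the phosphatidylserine receptor Timd4 fell, whereas the lysosomal protein gene Cd68 and the secreted scavenger protein gene Cd5l rose. Clec4f, Vsig4, Folr2, Adgre1 and Csf1r were not called. The share of called genes among all tested genes in this comparison was 35.3% (16.2% higher and 19.1% lower), against 2 markers higher and 3 lower of 10. The ranges of the 2 groups did not overlap for 4 of the 10 markers and for 45.6% of all tested genes. The median log2 difference was 0.03 for the markers and −0.04 for all tested genes. In bulk liver, fewer cells of a type and less RNA per cell cannot be told apart.

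**Figure D1:**
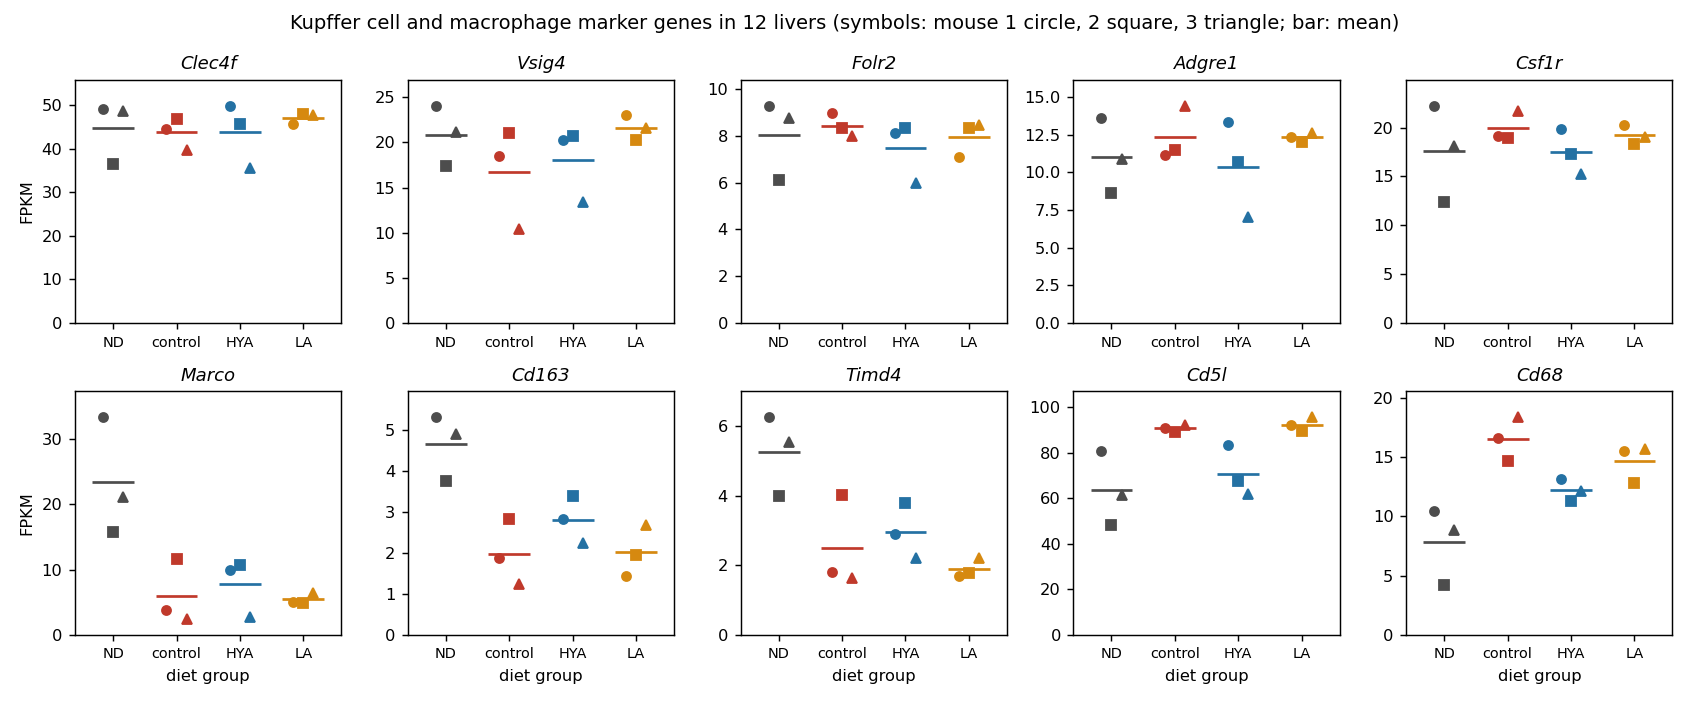
FPKM (vertical axes, from 0) of the 10 marker genes in each liver, by diet group on the horizontal axes, with 1 symbol per mouse and a bar for the mean of 3 mice. Marco and Cd163 lie lower in all high-fat livers than in ND livers and Cd68 lies higher, whereas the groups overlap for Clec4f, Folr2, Adgre1 and Csf1r.

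The promoters of the 5 called markers are shown because these genes moved in both directions under the same diet. Of the 10 genes, 8 were matched by symbol in the RefSeq promoter table (build GRCm38.p6), and Adgre1 and Csf1r were not. Each sequence is the 250 bases before the start of the gene, 5′ to 3′ on the strand of the gene, and capitals mark matches on either strand to AGGAAGT (PU.1), TGCTGA (MAF half-site), AGGTCA (nuclear receptor half-site) or TGAGTCA (AP-1). The windows are chr1:120505025-120505274, minus strand for Marco, chr6:124304401-124304650, plus strand for Cd163, chr11:46810549-46810798, plus strand for Timd4, chr3:87357631-87357880, plus strand for Cd5l and chr11:69666171-69666420, minus strand for Cd68.
Marco: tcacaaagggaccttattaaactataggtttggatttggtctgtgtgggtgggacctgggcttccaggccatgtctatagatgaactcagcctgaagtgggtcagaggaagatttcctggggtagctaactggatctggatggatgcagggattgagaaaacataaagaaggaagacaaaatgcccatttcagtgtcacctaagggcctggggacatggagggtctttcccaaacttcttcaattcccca
Cd163: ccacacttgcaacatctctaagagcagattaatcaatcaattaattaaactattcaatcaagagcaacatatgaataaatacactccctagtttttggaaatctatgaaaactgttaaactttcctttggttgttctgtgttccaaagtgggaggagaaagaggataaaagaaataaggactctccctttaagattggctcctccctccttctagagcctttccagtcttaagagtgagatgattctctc
Timd4: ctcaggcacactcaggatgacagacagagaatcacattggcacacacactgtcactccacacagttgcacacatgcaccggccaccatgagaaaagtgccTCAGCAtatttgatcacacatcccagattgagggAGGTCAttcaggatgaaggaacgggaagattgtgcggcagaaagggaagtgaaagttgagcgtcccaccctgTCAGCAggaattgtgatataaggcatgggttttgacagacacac
Cd5l: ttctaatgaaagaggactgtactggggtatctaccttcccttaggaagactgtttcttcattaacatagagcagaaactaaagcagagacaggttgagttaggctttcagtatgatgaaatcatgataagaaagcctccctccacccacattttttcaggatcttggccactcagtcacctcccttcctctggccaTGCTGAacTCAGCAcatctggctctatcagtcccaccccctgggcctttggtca
Cd68: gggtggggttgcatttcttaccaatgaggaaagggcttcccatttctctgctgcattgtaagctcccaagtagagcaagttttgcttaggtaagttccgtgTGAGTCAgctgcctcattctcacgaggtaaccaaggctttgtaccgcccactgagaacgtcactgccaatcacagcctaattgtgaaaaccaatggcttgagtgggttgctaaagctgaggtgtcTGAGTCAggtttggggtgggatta
The Cd68 window held 2 matches to TGAGTCA, a sequence found in 4.46% of the 32851 promoters of the table. The Timd4 window held 2 matches to TGCTGA (16.1% of promoters) and 1 to AGGTCA (14% of promoters), and the Cd5l window held 2 matches to TGCTGA. The Marco and Cd163 windows held none of the 4 sequences. AGGAAGT (7.69% of promoters) was found in none of these 5 windows and in 1 of the 9 promoters of the markers, that of Folr2, which has 2 promoters in the table. Over these 9 promoters TGCTGA was found in 5, AGGTCA in 2 and TGAGTCA in 2, among them promoters of Clec4f and Folr2, which were not called.

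Marco, a class A scavenger receptor that binds bacteria, was the marker with the largest difference. It was at 33.4, 15.7 and 21.1 FPKM in ND-fed mice, 3.72, 11.7 and 2.46 in control mice, 9.89, 10.8 and 2.71 in HYA-treated mice and 5.09, 4.92 and 6.43 in LA-treated mice. All 9 livers of the high-fat diets lay below the lowest ND liver, and within the high-fat groups control mouse 2 and HYA-treated mouse 3 stood apart from the other mice of their group. The mean fell from 23.4 ± 9.03 to 5.96 ± 5.01 FPKM (SD, n = 3) between ND-fed and control mice (log2 difference −1.98, standard error 0.52, adjusted p = 0.0128, limma, Benjamini-Hochberg). Leaving out any 1 of these 6 mice kept the call, with adjusted p up to 0.0492 (limma, Benjamini-Hochberg).

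Cd163, the receptor for haptoglobin bound to haemoglobin, was at 5.29, 3.75 and 4.89 FPKM in ND-fed mice, 1.87, 2.81 and 1.24 in control mice, 2.81, 3.37 and 2.23 in HYA-treated mice and 1.43, 1.93 and 2.66 in LA-treated mice. As for Marco, all 9 high-fat livers lay below the lowest ND liver. The mean fell from 4.64 ± 0.803 to 1.97 ± 0.792 FPKM (SD, n = 3) in control mice (log2 difference −0.95, standard error 0.21, adjusted p = 0.00507, limma, Benjamini-Hochberg).

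Timd4, which binds phosphatidylserine on dying cells, was at 6.26, 4.00 and 5.56 FPKM in ND-fed mice, 1.82, 4.03 and 1.62 in control mice, 2.90, 3.81 and 2.20 in HYA-treated mice and 1.68, 1.79 and 2.21 in LA-treated mice. Control mouse 2 was level with ND mouse 2, so that these groups overlapped in this 1 liver, and the other 8 high-fat livers lay below all ND livers. The mean fell from 5.27 ± 1.16 to 2.49 ± 1.34 FPKM (SD, n = 3) in control mice (log2 difference −0.89, standard error 0.24, adjusted p = 0.0148, limma, Benjamini-Hochberg). The call rested on single mice: the adjusted p was 0.0528 without ND mouse 1, 0.0612 without control mouse 1 and 0.0523 without control mouse 3 (limma, Benjamini-Hochberg).

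Control mouse 2 was the highest of the control mice for Marco, Cd163, Timd4, Vsig4 and Clec4f, and the lowest for Cd68, Cd5l and Csf1r. ND mouse 2 had the lowest and ND mouse 1 the highest level of the ND-fed mice for all 10 markers. HYA-treated mouse 3, whose library was the deepest, had the lowest level of its group for 9 of the 10 markers.

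Cd68, a glycoprotein of macrophage lysosomes, was at 10.4, 4.16 and 8.85 FPKM in ND-fed mice, 16.6, 14.7 and 18.4 in control mice, 13.2, 11.3 and 12.1 in HYA-treated mice and 15.5, 12.8 and 15.7 in LA-treated mice. All 9 high-fat livers lay above the highest ND liver. The mean rose from 7.81 ± 3.26 to 16.6 ± 1.82 FPKM (SD, n = 3) in control mice (log2 difference 1.07, standard error 0.23, adjusted p = 0.00509, limma, Benjamini-Hochberg).

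Cd5l, a secreted protein of tissue macrophages also known as AIM, was at 80.5, 48.4 and 61.2 FPKM in ND-fed mice, 91.0, 89.2 and 92.0 in control mice, 83.1, 67.5 and 61.6 in HYA-treated mice and 92.1, 89.4 and 95.4 in LA-treated mice. Control and LA-treated mice lay above the highest ND liver, and HYA-treated mice overlapped with ND-fed mice. The mean rose from 63.3 ± 16.2 to 90.7 ± 1.46 FPKM (SD, n = 3) in control mice (log2 difference 0.54, standard error 0.15, adjusted p = 0.0196, limma, Benjamini-Hochberg). This call was the least firm of the 5: the adjusted p was 0.0641 without ND mouse 2, 0.0514 without ND mouse 3, 0.0543 without control mouse 1 and 0.0548 in a fit of these 2 groups alone (limma, Benjamini-Hochberg).

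Clec4f, a C-type lectin found on mouse Kupffer cells, was at 49.1, 36.5 and 48.6 FPKM in ND-fed mice, 44.6, 46.9 and 39.8 in control mice, 49.9, 45.8 and 35.6 in HYA-treated mice and 45.7, 47.9 and 47.7 in LA-treated mice. The 4 groups overlapped, and the difference between control and ND-fed mice was −0.02 on the log2 scale, with a 95% confidence interval of −0.32 to 0.28 (adjusted p = 0.922, limma, Benjamini-Hochberg). Rescaling each library to the same total (TPM) moved this value to 0.21, and with it the median of all tested genes from −0.04 to 0.17. Relative to that median Clec4f was at 0.02 on the deposited scale and 0.05 on the TPM scale, Marco at −1.94 and −2.07, Cd163 at −0.91 and −1.10, Timd4 at −0.85 and −1.01, Cd5l at 0.58 and 0.61, and Cd68 at 1.11 and 1.20. The 5 called markers were called on both scales.

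The complement receptor Vsig4, the folate receptor Folr2, the adhesion receptor Adgre1 (F4/80) and the receptor for the growth factors Csf1 and Il34, Csf1r, were not called either. Vsig4 ranged from 17.4 to 24.0 FPKM in ND-fed and from 10.4 to 21.1 FPKM in control mice, with a log2 difference of −0.35 and a 95% confidence interval of −0.86 to 0.16. Folr2 ranged from 6.11 to 9.28 and from 7.99 to 8.96 FPKM in the same groups (log2 difference 0.08, interval −0.24 to 0.40). Adgre1 ranged from 8.65 to 13.6 and from 11.1 to 14.4 FPKM (log2 difference 0.16, interval −0.28 to 0.60), and Csf1r from 12.4 to 22.2 and from 19.0 to 21.7 FPKM (log2 difference 0.21, interval −0.16 to 0.57). The groups overlapped for these 4 genes, and the intervals leave room for differences of about the size seen for Cd5l in Vsig4, Adgre1 and Csf1r. Csf1r overlaps Hmgxb3 on the opposite strand (mean 3.88 FPKM) and Folr2 overlaps Gm10602 (0.346 FPKM), and the strand of counting is not given in the sources used here, so that their levels carry this uncertainty.

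**Figure D2:**
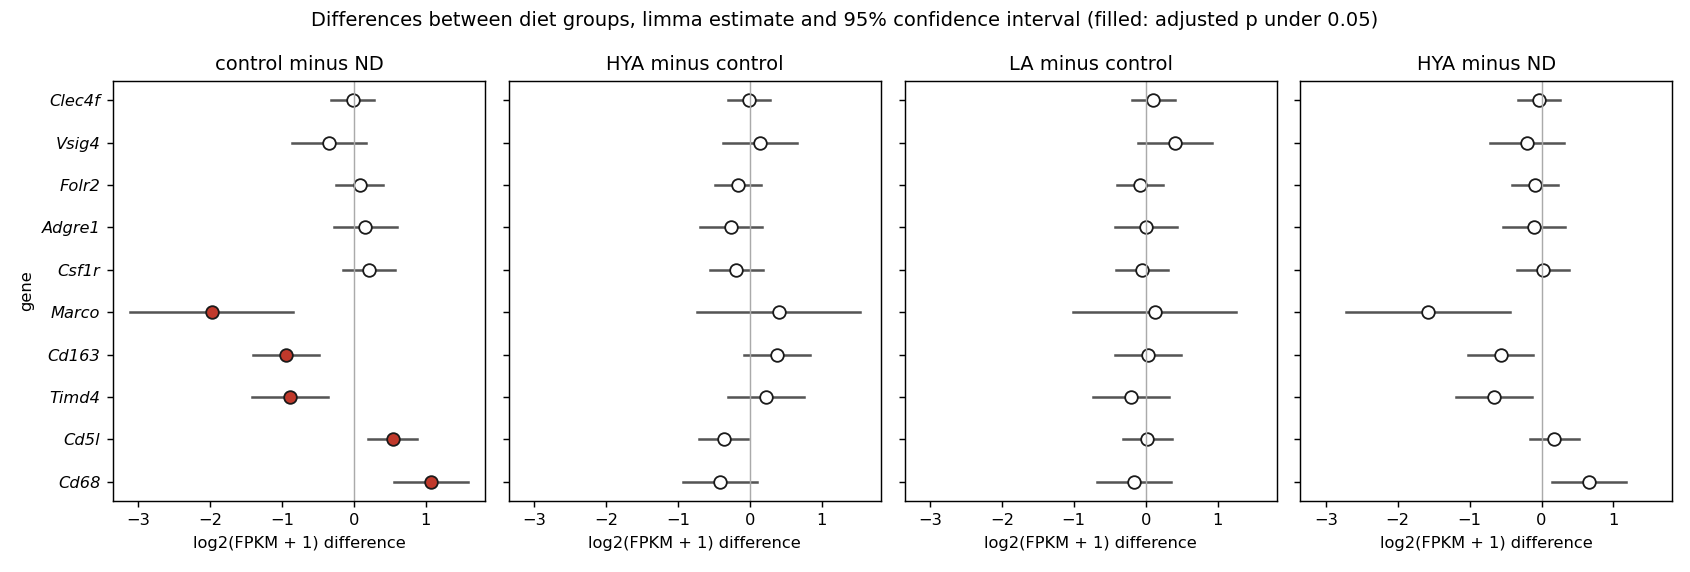
Log2(FPKM + 1) differences (horizontal axes) of the 10 markers between diet groups, 1 comparison per panel, with the limma estimate as a point, the 95% confidence interval as a line and filled points for an adjusted p under 0.05. Filled points occur only in control minus ND, at −1.98 for Marco, −0.95 for Cd163, −0.89 for Timd4, 0.54 for Cd5l and 1.07 for Cd68.

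Ratios between markers within a liver do not depend on the scaling of the library, and no test was run on them. Marco per Adgre1 was 2.45, 1.82 and 1.93 in ND-fed mice, 0.334, 1.02 and 0.170 in control mice, 0.740, 1.01 and 0.383 in HYA-treated mice and 0.413, 0.409 and 0.509 in LA-treated mice. Timd4 per Adgre1 was 0.461, 0.462 and 0.509 in ND-fed mice, 0.163, 0.351 and 0.112 in control mice, 0.217, 0.356 and 0.311 in HYA-treated mice and 0.136, 0.149 and 0.175 in LA-treated mice. For both, all 9 high-fat livers lay below all ND livers, and the overlap of Timd4 in control mouse 2 was no longer present. Cd163 per Adgre1 was at a mean of 0.424 ± 0.0304 on ND, 0.166 ± 0.0796 for control mice, 0.281 ± 0.0606 with HYA and 0.162 ± 0.0476 with LA (SD, n = 3), again with all high-fat livers below the ND livers. Cd5l per Adgre1 lay higher in all 9 high-fat livers (6.22 to 8.72) than in ND livers (5.59 to 5.92). Clec4f per Adgre1 was 4.09 ± 0.433, 3.62 ± 0.743, 4.35 ± 0.652 and 3.82 ± 0.145 in ND-fed, control, HYA-treated and LA-treated mice (SD, n = 3), and the groups overlapped. With Csf1r in place of Adgre1, Marco, Timd4 and Cd163 again lay lower in all 9 high-fat livers than in ND livers, whereas Cd5l overlapped (3.90 in HYA-treated mouse 2 and 3.90 in ND mouse 2). Cd68 itself lay higher in all 9 high-fat livers, so that a ratio to it is lower there even for an unchanged numerator. With Cd68 as denominator 6 of the 7 ratios lay lower in all 9 high-fat livers, and that of Cd5l overlapped. Among the 6 were Clec4f, Vsig4 and Folr2, which overlapped per Adgre1 and per Csf1r, so the count is not used as support.

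**Figure D3:**
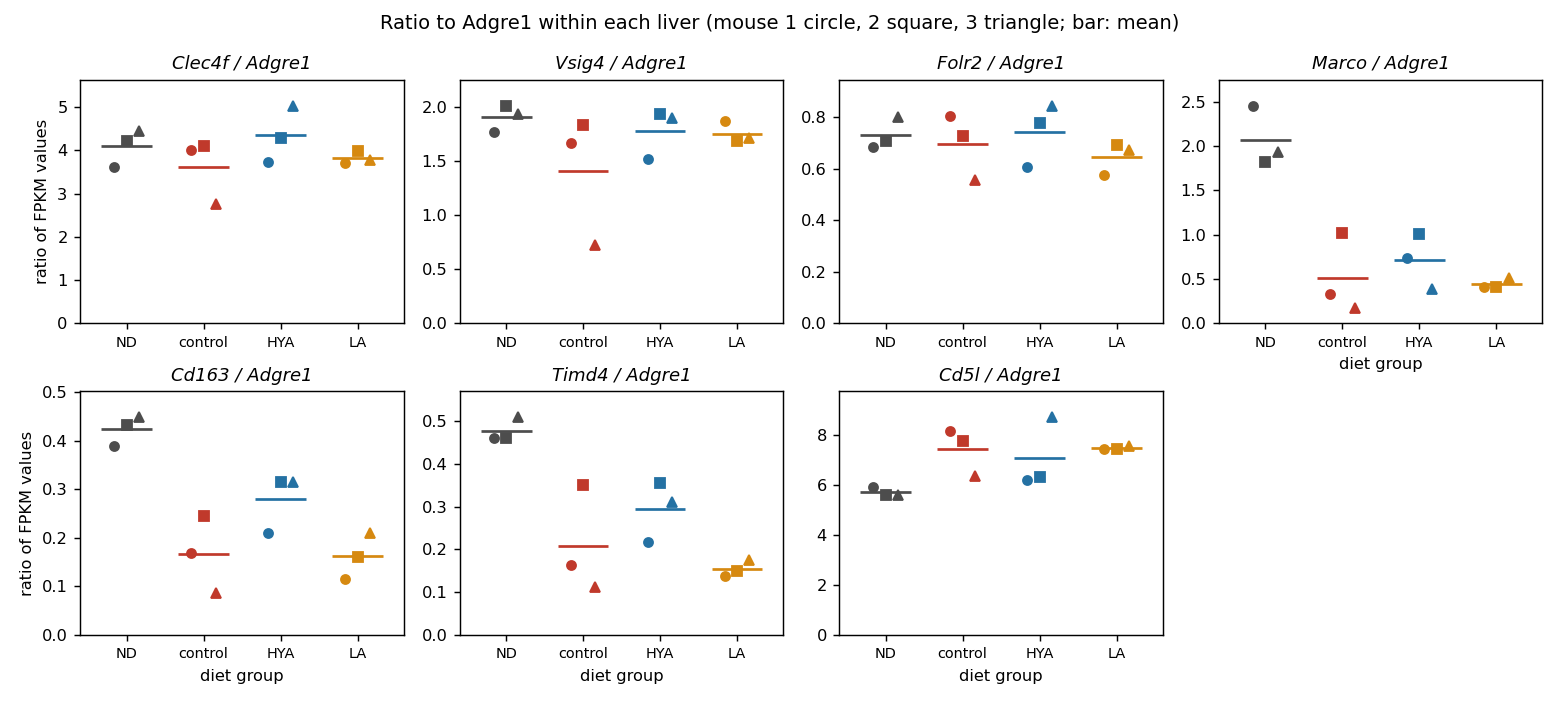
Ratio of the FPKM of 7 markers to that of Adgre1 within each liver (vertical axes, from 0), by diet group on the horizontal axes, with 1 symbol per mouse and a bar for the mean of 3 mice. For Marco, Cd163 and Timd4 all 9 high-fat livers lie below the 3 ND livers, and for Clec4f and Folr2 the groups overlap.

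Addition of HYA to the high-fat diet addresses whether the compound moves these markers away from their levels in control mice. None of the 10 markers was called between HYA-treated and control mice, where 2.8% of all tested genes were called (310 of 11083). At an unadjusted p under 0.05 there was 1 marker, Cd5l, and voom on recovered fragments also called 0. The ranges did not overlap for 2 of the 10 markers, Cd5l and Cd68, both lower in all 3 HYA-treated mice than in all 3 control mice, against 21.6% of all tested genes. The log2 difference was −0.37 for Cd5l (95% confidence interval −0.71 to −0.02, adjusted p = 0.236) and −0.41 for Cd68 (interval −0.93 to 0.10, adjusted p = 0.384, limma, Benjamini-Hochberg). For the markers that fell on the high-fat diet, the differences were 0.40 for Marco (interval −0.74 to 1.54), 0.38 for Cd163 (−0.08 to 0.84) and 0.23 for Timd4 (−0.30 to 0.76), and the groups overlapped. Leaving out 1 mouse moved these values between 0.012 (without control mouse 3) and 0.95 (without control mouse 2) for Marco, 0.19 and 0.575 for Cd163 and 0.0553 and 0.53 for Timd4, with the same 2 mice at the ends. The median over the 10 markers was −0.09, and over all tested genes 0.02. The number of genes called in this comparison depended on the mice and on the fit: it was 0 without HYA-treated mouse 2 and 0 in a fit of these 2 groups alone.

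LA-treated mice were compared with the same control mice, so that the 2 comparisons share them. None of the markers was called with limma, 0 had an unadjusted p under 0.05, voom called 0, and no group ranges were apart (0 of 10 markers, 7.55% of all tested genes). Of all tested genes 0% were called, with 294 at an unadjusted p under 0.05. The log2 differences of the 10 markers ran from −0.21 (Timd4) to 0.41 (Vsig4), with a median of 0.02. Leaving out 1 mouse moved the value of Vsig4 between 0.12 and 0.60.

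HYA and LA, which differ by the hydroxyl group and a double bond, were given at the same percentage and compared directly. None of the 10 markers was called with limma or voom, and 0.487% of all tested genes were called with limma. Cd5l was lower in all 3 HYA-treated than in all 3 LA-treated mice (log2 difference −0.39, 95% confidence interval −0.73 to −0.05, adjusted p = 0.226, limma, Benjamini-Hochberg). It was the 1 marker with an unadjusted p under 0.05 and the 1 marker without overlap, against 25.2% of all tested genes. Timd4 had a difference of 0.44 (interval −0.09 to 0.97) and Marco of 0.28 (−0.86 to 1.41), so that neither a difference nor its absence was shown for these genes.

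Compared with ND-fed mice, HYA-treated mice had 0 markers called with limma, where 16.6% of all tested genes were called. At an unadjusted p under 0.05 there were 4 markers, namely Marco (log2 difference −1.58, adjusted p = 0.0607), Timd4 (−0.66, 0.085), Cd163 (−0.57, 0.0867) and Cd68 (0.66, 0.0803, limma, Benjamini-Hochberg). The ranges of these 4 markers did not overlap between the groups, against 35.9% of all tested genes. Single alternatives brought a call: voom called Marco (adjusted p = 0.0234), a fit of these 2 groups alone called Cd163 (0.0446), and Cd68 was called without ND mouse 1 (0.0288, limma, Benjamini-Hochberg). Cd68 was at 0.31 without ND mouse 2. A smaller difference from ND-fed mice in HYA-treated than in control mice is not a test of HYA, which is the comparison with control mice above.

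Of 12 other genes of resident Kupffer cells 8 were tested in control compared with ND-fed mice, and 1 rose and 3 fell, with a median of 0.20, where 35.3% of all tested genes were called. Without the filter 1 of the 12 rose and 4 fell, where 2264 of 26045 genes rose and 1938 fell. The median was then −0.05, so that its sign depended on the filter. Fcna, a ficolin, fell from 38.7 to 23.5 FPKM (log2 difference −0.70, adjusted p = 0.00933), and the iron exporter Slc40a1 fell from 19.5 to 15.4 FPKM (−0.32, adjusted p = 0.00677, limma, Benjamini-Hochberg). The complement gene C6, the most abundant of the list and also a hepatocyte gene, fell from 76.3 to 36.9 FPKM (−1.03, adjusted p = 1.51e-05), and the receptor gene Clec1b rose from 1.53 to 2.65 FPKM (0.53, adjusted p = 0.000334, limma, Benjamini-Hochberg). On the TPM scale 4 rose and 2 fell, where 83.8% of all called genes were higher and the median of all tested genes was 0.17. In HYA-treated compared with control mice C6 rose to 49.2 FPKM (0.41, adjusted p = 0.0406, limma, Benjamini-Hochberg) and the other 7 were not called. The C6 call was lost whichever of the 6 mice was left out, without the filter and in a fit of these 2 groups alone. On the TPM scale 0 of the 8 rose and 1 fell in this comparison, where 19.5% of all called genes were higher.

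Among 12 transcription factors of Kupffer cells 4 rose and 0 fell in control compared with ND-fed mice without the filter (median −0.03), where 2264 of 26045 genes rose and 1938 fell. With the filter 11 were tested, and 5, Zeb2 among them, rose and 1 fell, where 16.2% of all tested genes rose and 19.1% fell. Id1 rose from 3.33 to 7.52 FPKM (log2 difference 0.98, adjusted p = 0.0102), and Nr1h3, which encodes the oxysterol receptor LXRα, fell from 44.1 to 39.1 FPKM (−0.17, adjusted p = 0.0433, limma, Benjamini-Hochberg). Irf8 (0.48), Spi1, which encodes PU.1 (0.50), and Maf (0.28) rose as well. Zeb2, the other factor called, was at 0.991 and 1.65 FPKM in ND-fed and control mice and reached the filter only through the high-fat livers, so that its levels are a description, and Id3 at 35.8 and 29.6 FPKM was not called. Nr1h3 is also expressed by hepatocytes. On the TPM scale, where 83.8% of all called genes were higher, 5 factors rose and 0 fell. In a fit of these 2 groups alone 3 rose and 0 fell. Without ND mouse 2, or without control mouse 1, 2 rose and 0 fell. Of 7 ligands of the niche 3 rose and 0 fell without the filter, with a median of 0.35. With the filter Csf1 rose from 2.30 to 3.31 FPKM (0.39, adjusted p = 0.0337, limma, Benjamini-Hochberg), beside Tgfb1 (0.60), Gdf2 (0.35) and Dll4 (0.32). Il34 was also called, at 0.471 and 1.70 FPKM in ND-fed and control mice, which passed the filter only through the high-fat livers, so that its levels are a description. Bmp10 was not called (−0.05). With the filter 5 of the 6 tested ligands were called, Il34 among them, where 35.3% of all tested genes were called (16.2% higher). The count was 2 without ND mouse 2, without control mouse 1 or without control mouse 3. None of these factors and ligands was called between HYA-treated and control mice, where 2.8% of all tested genes were called. Without control mouse 2, 1 of the factors was called, as higher with HYA.

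Of 15 genes of macrophages in general 11 rose and 0 fell in control compared with ND-fed mice without the filter, with a median log2 difference of 0.61, where 2264 of 26045 genes rose. With the filter 13 of 14 tested genes rose, 1 of which lay under 1 FPKM in ND-fed mice, where 16.2% of all tested genes rose. The lysozyme gene Lyz2, the most abundant, rose from 69.1 to 92.4 FPKM (0.42, adjusted p = 0.0396), and the cathepsin gene Ctss from 27.5 to 52.5 FPKM (0.92, adjusted p = 0.0018, limma, Benjamini-Hochberg). In a fit of these 2 groups alone 9 of the 14 were called, and without ND mouse 2 it was 8. The summed FPKM of the list was 371, 270 and 333 on ND, 500.3, 442 and 529 for control mice, 451, 344 and 346 with HYA and 473, 453 and 467 with LA. In HYA-treated compared with control mice Fcer1g fell from 17.2 to 12.4 FPKM (−0.45, adjusted p = 0.0487, limma, Benjamini-Hochberg), 0 rose, and the median was −0.37. Of all tested genes 2.8% were called in this comparison. The Fcer1g call was lost with a pseudocount of 0.1, with no filter or a filter at 0.2 FPKM, with voom, in a fit of these 2 groups alone and on leaving out mouse 1 or 3 of the control group or mouse 2 or 3 of the HYA group. With a block on the replicate number, which was not taken to pair mice, 4 genes of the list fell and 0 rose. This count is not used as support.

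Of 15 genes of macrophages that derive from monocytes in fatty liver, 8 reached a mean of 1 FPKM, several of them only through the high-fat livers, so that no count over these 8 is used as support. Without the filter 13 of the 15 rose in control compared with ND-fed mice and 0 fell, with a median of 0.89, where 2264 of 26045 genes rose in the same fit. Gpnmb was at 0.0386, 2.37, 0.859 and 1.67 FPKM on ND, in control mice, with HYA and with LA, and Itgax, which encodes CD11c, at 0.253, 2.08, 0.927 and 1.52 FPKM. Both passed the filter only through the high-fat livers, so their levels are a description and no test is given. The other 7 genes had a mean under 1 FPKM and were not tested with it, and Chil3, Clec4e and S100a4 among them were at 0 in at least 1 liver. The summed FPKM of the list was 20.4, 18.5 and 21.4 on ND, 69.0, 45.8 and 62.0 for control mice, 39.2, 29.3 and 34.8 with HYA and 58.6, 48.1 and 51.9 with LA. Control mouse 2, the highest of its group for Marco, Cd163 and Timd4, was the lowest for this sum. Cd9, the most abundant and above 7 FPKM in each liver, rose from 7.40 to 15.9 FPKM in control compared with ND-fed mice (log2 difference 1.00, adjusted p = 0.000112) and was at 9.10 FPKM with HYA (−0.74 against control mice, adjusted p = 0.0172, limma, Benjamini-Hochberg). No gene of the list was called in the latter comparison without control mouse 1, without HYA-treated mouse 2 or in a fit of these 2 groups alone. The main fit called 3, as lower with HYA, where 2.8% of all tested genes were called. It was 7 without control mouse 2 and 6 with a block on the replicate number. These counts hold genes that passed the filter only through the high-fat livers and are not used as support. Cd9 is also made by other liver cells.

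In a list of 14 receptors and bridging proteins for the uptake of dying cells and lipoproteins, 13 were tested, and 9 rose and 1 fell in control compared with ND-fed mice (median 0.34), where 16.2% of all tested genes rose and 19.1% fell and the median was −0.04. Cd36 rose from 26.7 to 88.3 FPKM (log2 difference 1.69, adjusted p = 6.32e-07), Gas6, a ligand of Mertk and Axl, rose from 18.7 to 64.6 FPKM (1.73, adjusted p = 1.39e-06), and Lrp1 fell from 84.7 to 56.1 FPKM (−0.59, adjusted p = 5.65e-05, limma, Benjamini-Hochberg). Between control and HYA-treated mice, where 2.8% of all tested genes were called, Gas6 fell to 41.9 FPKM (−0.61, adjusted p = 0.0205) and Lrp1 rose to 69.3 FPKM (0.30, adjusted p = 0.0355, limma, Benjamini-Hochberg). Without control mouse 1, or without any 1 HYA-treated mouse, 0 genes of this list were called in this comparison. On the TPM scale 12 rose and 1 fell in control compared with ND-fed mice, where 83.8% of all called genes were higher. Between control and HYA-treated mice 0 rose and 3 fell on that scale, so that the rise of Lrp1 was not called. Of all genes called there 19.5% were higher with HYA.

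**Figure D4:**
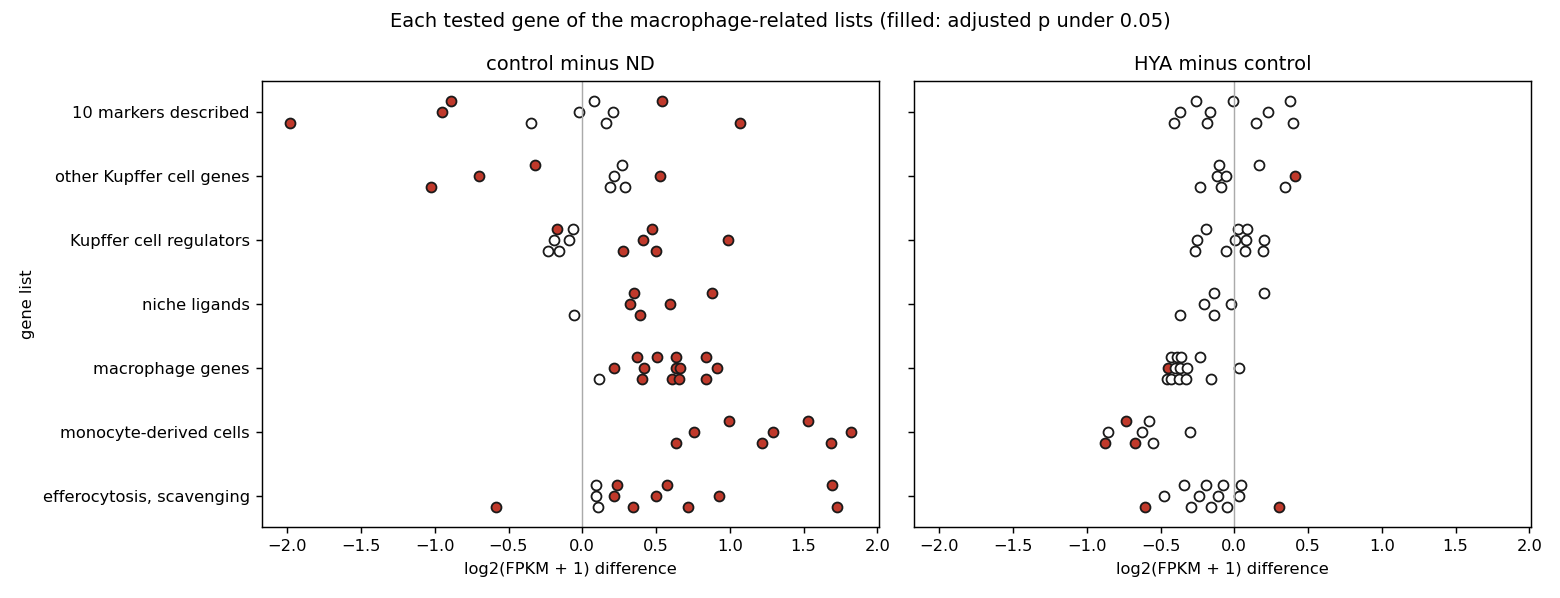
Log2(FPKM + 1) differences (horizontal axes) of every tested gene in 7 macrophage-related lists (vertical axis), for control minus ND and HYA minus control, with filled points for an adjusted p under 0.05 (limma). In control minus ND the 10 markers spread from −1.98 to 1.07, whereas the tested genes of the macrophage list lie above 0. Filled points of genes that passed the filter only through the high-fat livers, such as Gpnmb, Itgax and Il34, are a description.

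Markers of other liver cells moved between the same groups, and their part in the results for the 10 markers was not tested. Of all tested genes 16.2% rose and 19.1% fell in control compared with ND-fed mice, and the counts that follow are read against these shares. Of 7 hepatocyte genes 5 fell and 0 rose. Their summed FPKM, led by Alb, was 40834, 39676 and 40965 on ND, 26840, 30561 and 30200 for control mice, 34237, 35355 and 35094 with HYA and 29850, 30133 and 29583 with LA. Of 9 stellate cell genes 4 rose, with sums led by Ecm1 of 118, 96.6 and 133 on ND, 176, 149 and 167 for control mice, 165, 153 and 149 with HYA and 196, 163 and 164 with LA. Of 9 genes of sinusoidal endothelium 3 rose, among them Lyve1 from 1.82 to 6.25 FPKM (log2 difference 1.37), with sums led by Clec4g of 90.8, 72.8 and 90.3 on ND, 99.9, 103 and 101 for control mice, 104, 103 and 99.8 with HYA and 95.03, 98.8 and 104 with LA. ND mouse 2, the lowest of its group for all 10 markers, was the lowest for the last 2 sums as well.

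Of 6 cholangiocyte genes 3 were tested. Spp1, which macrophages of fatty liver also make, rose from 21.0 to 118 FPKM in control compared with ND-fed mice (log2 difference 2.38, adjusted p = 0.000115, limma, Benjamini-Hochberg) and fell with HYA against the control diet (log2 difference −1.39, adjusted p = 0.0347, n = 3, limma, Benjamini-Hochberg). The call with HYA was lost without HYA-treated mouse 2 and in a fit of these 2 groups alone, where no gene was called. Epcam, at 0.898, 2.38, 0.863 and 1.71 FPKM on ND, in control mice, with HYA and with LA, passed the filter only through control and LA livers, so that its calls are not used. Sox9, at 1.88 and 1.80 FPKM in ND-fed and control mice, was not called, and Krt19 was at 0.746 and 0.897 FPKM. The sums, most of which were Spp1, were 19.3, 27.1 and 28.1 on ND, 172, 78.4 and 120 for control mice, 39.2, 45.3 and 53.0 with HYA and 135, 81.8 and 106 with LA. Lymphocyte and granulocyte genes were near the lower end of the table: the sums lay between 1.78 and 5.03 FPKM for 8 T and NK cell genes (led by Nkg7), 1.94 and 4.63 for 6 B and plasma cell genes (Cd79b), 2.26 and 8.94 for 6 neutrophil genes (S100a9), 2.22 and 3.82 for 7 dendritic cell genes (Zbtb46) and 0.835 and 1.69 for 6 mast cell and eosinophil genes (Kit). Of these lists 0, 0, 2, 1 and 1 genes were tested and 0 were called in control compared with ND-fed mice with limma. The neutrophil sum was nevertheless higher in all control mice (7.15, 4.52 and 8.94) than in all ND-fed mice (3.46, 3.14 and 2.26), and so was the dendritic cell sum (3.39, 3.35 and 3.49 against 2.22, 2.59 and 2.50). Retnlg, Cxcr2, Mmp8, Flt3 and Cd209a, and all of the last list but Kit, were at 0 in at least 1 liver. Of 5 erythroid genes 3 were tested, and Alas2 fell in control compared with ND-fed mice (log2 difference −1.10). Hba-a1, at 90.5 and 143 FPKM in ND-fed and control mice (0.63), and Hbb-bs, at 133 and 228 FPKM (0.76), were higher and not called. The sums, led by Hbb-bs, lay between 247 and 521 FPKM.

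The genes whose log2(FPKM + 1) over the 12 livers was most like that of 3 of the markers were ranked by Pearson r, as a description over livers that differ in diet. For Clec4f the highest r was that of Ntan1 (r = 0.847), and Zfp691 (0.761), Cd300lg (0.748) and Zfp511 (0.739) were among the first 5. For Adgre1 they were P2ry13 (0.914), Lilra5 (0.912), Fst (0.902), Cfp (0.894) and Pilra (0.889). For Cd68, which differed between diets, they were Ifi203 (0.959), Arhgap31 (0.959), Fscn1 (0.958), Slc30a4 (0.958) and Abcg1 (0.958).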

How the data were processed

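Liver RNA of 12 mice was sequenced by a company (Novogene) on an Illumina platform, and 1 table of FPKM per gene and mouse was deposited. Per the submitters' processing notes, fastp, HISAT2 2.0.5 and featureCounts 1.5.0-p3 were used with build GRCm38. The methods name TPM as the unit, but the column totals ranged from 342146 to 429286, so the values were taken as FPKM. FPKM multiplied by gene length fell on whole steps (tolerance 0.1) for 100% of values, and 1 step was read as 1 fragment. For a 2 kb gene, 3 fragments equal 0.0607 to 0.0944 FPKM, which covers counting error only. Mice of a group differed by more than sampling noise (chi-square per degree of freedom 9.71 to 26.5).

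Group comparisons used limma 3.58.1 in R 4.3.3 (trend, two-sided, Benjamini-Hochberg over all genes tested) on log2(FPKM + 1) of genes whose mean reached 1 FPKM, with all 12 livers in 1 fit and no block. The method was tested on simulated data. Alternatives were a pseudocount of 0.1, other filters, median-ratio and TPM scaling, voom on recovered fragments, a fit of 2 groups, a replicate block, a fold threshold, and leaving out each mouse. The markers and gene lists were chosen with earlier results of these data known. Named genes were all 10 markers, any gene of the Kupffer cell, factor and ligand lists, and from every other list the most abundant gene and up to 4 called genes with the lowest p in control compared with ND-fed mice and in HYA-treated compared with control mice. Sox9, Krt19 and genes at 0 in a liver were named after their values were seen. For 3 markers genes were named from the 5 with the highest r, clone names left out.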

Additional observations from a re-analysis of the deposited data

How the results depend on the processing

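The calls of Marco, Cd163 and Cd68 in control compared with ND-fed mice were kept in all alternatives and whichever mouse was left out, apart from the fold threshold for Cd163. A log2 fold change above 1 left 2 markers and 430 genes in that comparison, 34 genes in HYA-treated compared with control mice, 12 in HYA-treated compared with LA-treated mice and 209 in HYA-treated compared with ND-fed mice. Without a filter 105 genes were called in HYA-treated compared with control mice, 1 in LA-treated compared with control mice and 0 between HYA and LA. On the TPM scale 497 genes were called in HYA-treated compared with control mice and 165 between HYA and LA, Clec4f was at 0.21 in control and 0.0779 in HYA-treated compared with ND-fed mice, and Folr2 at 0.0098 in the latter. The share of calls that were higher moved from 45.9% to 83.8% in control compared with ND-fed mice. With voom 166 genes were called between HYA and LA, and 1 marker in HYA-treated compared with ND-fed mice. With 2 groups in the fit these were 94 and 1, and 0 genes were called in HYA-treated compared with control mice. A block on the replicate number gave 258 genes between HYA and LA and 1 marker in HYA-treated compared with ND-fed mice (Cd68, adjusted p = 0.0353, limma, Benjamini-Hochberg). Same-number mice of different groups had correlations of −0.396 to 0.294, 3 of 18 above 0.1, so the numbers were not taken as pairs. Leaving out 1 mouse gave 3 to 5 called markers in control compared with ND-fed mice, 0 to 1 in HYA-treated compared with ND-fed mice (1193 to 1527 genes), 0 (without HYA-treated mouse 2) to 653 genes (without control mouse 2) in HYA-treated compared with control mice, and 0 to 20 genes between HYA and LA. Log2 differences that changed sign, none of them called, ran in control minus ND from −0.16 to 0.0518 for Clec4f, −0.0876 to 0.18 for Folr2 and −0.0107 to 0.39 for Csf1r. In HYA minus ND they ran from −0.17 to 0.11 for Clec4f, −0.29 to 0.12 for Adgre1, −0.25 to 0.0445 for Folr2 and −0.20 to 0.20 for Csf1r. In HYA minus control they ran from −0.11 to 0.13 for Clec4f and −0.14 to 0.34 for Vsig4. In LA minus control they ran from −0.38 to 0.0863 for Timd4, −0.26 to 0.67 for Marco, −0.16 to 0.23 for Cd163, −0.0578 to 0.11 for Adgre1 and −0.089 to 0.0088 for Csf1r. In HYA minus LA they ran from −0.22 to 0.0202 for Clec4f, −0.0208 to 0.81 for Marco and −0.17 to 0.0429 for Folr2. The cause was not tested.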
